A study of Homo sapiens with 16 samples.

Results

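The AP-1 transcription factors were followed here through 8 genes of the count files, FOS, FOSB, FOSL1, FOSL2, JUN, JUNB, JUND and ATF3, out of 26485 gene symbols. They were taken by symbol, whatever their values, and all 8 had enough counts to be tested in each comparison. The study sequenced polyadenylated RNA from SW480 and SW620, 2 human colon cancer cell lines. SW480 was grown from a primary colon tumour and SW620 from a lymph node metastasis of the same patient, and both carry a truncated APC, which leaves Wnt signalling on. The 4 groups were SW480 with dnLEF1, SW480 with GFP, SW620 with dnLEF1 and SW620 with GFP, each with 4 libraries at passage 6. dnLEF1 is a LEF1 without the part that binds beta-catenin, so that it can sit on Wnt target genes without switching them on, and the labels call these cells Wnt inhibited. GFP is the mock control, which the labels call Wnt high. The labels do not state the vector, its promoter, the number of clones or the time since the construct was introduced. Cells were lifted from monolayers with trypsin and EDTA before RNA was isolated. Nothing says that the libraries of a group came from separate cultures, so each p-value is a measure of how far these samples lie apart, and that distance can be technical.

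AP-1 is a dimer of basic leucine zipper proteins. JUN, JUNB and JUND can pair with each other or with a FOS family protein, whereas FOS, FOSB, FOSL1 and FOSL2 need a JUN partner. FOS, FOSB, JUN, JUNB and ATF3 are immediate early genes: growth factors, serum and stress raise their RNA within minutes, through serum response factor and through cyclic AMP response elements in their promoters, and the RNA decays quickly. FOSL1 and FOSL2 follow later and last longer, and JUND is expressed steadily in many cells. ATF3 belongs to the related ATF group, pairs with JUN proteins and is induced by stress. In colon epithelium JUN and FOSL1 are among the genes known to be driven by beta-catenin with TCF or LEF factors, and FOSL1 is associated with invasive tumour cells.

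The promoters of 7 of the 8 genes were matched by symbol in a RefSeq table of GRCh38.p14, the exception being FOSL1. The 250 bases before each start were searched on both strands for 7 short motifs. A cyclic AMP response element or a near form of it was present in the promoters of FOS, FOSB, FOSL2, JUN, JUND and ATF3. The JUNB window held none. These stretches are shown because they carry that shared element. Capitals mark the match, on the strand of the gene.
FOS, chr14:75278728-75278817, plus strand: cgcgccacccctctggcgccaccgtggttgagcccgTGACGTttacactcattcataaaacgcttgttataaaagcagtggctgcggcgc
FOSB, chr19:45467896-45467985, plus strand: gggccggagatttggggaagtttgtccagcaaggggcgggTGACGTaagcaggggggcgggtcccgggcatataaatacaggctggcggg
FOSL2, chr2:28392758-28392799, plus strand: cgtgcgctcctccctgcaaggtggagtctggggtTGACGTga
JUN, chr1:58784058-58784147, minus strand: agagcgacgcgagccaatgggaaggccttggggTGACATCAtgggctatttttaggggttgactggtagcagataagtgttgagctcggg
JUND, chr19:18281703-18281842, minus strand: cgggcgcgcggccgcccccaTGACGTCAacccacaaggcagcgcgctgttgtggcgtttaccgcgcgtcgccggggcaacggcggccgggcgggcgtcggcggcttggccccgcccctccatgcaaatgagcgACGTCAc
ATF3, chr1:212565247-212565326, plus strand: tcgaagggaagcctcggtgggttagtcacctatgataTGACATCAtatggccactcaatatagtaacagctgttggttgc

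The short element TGACGT began 64 bases before the start in FOS, 60 in FOSB and 66 in FOSL2, and 7.10% of 35116 promoters of the same length hold it. The variant TGACATCA began 67 bases before the start in JUN and 123 in the first of 2 ATF3 promoters, and 2.37% of promoters hold it. The full element TGACGTCA, which contains the short element, began 200 bases before the start in JUND and is held by 1.65%. JUND had a further short element, ACGTCA on the strand of the gene, at 87 bases. TATAAA stood 33 bases before the start in FOS, 30 in FOSB, 31 in JUNB and 230 in the second ATF3 promoter, against 10.7% of promoters. None of these windows held the AP-1 element TGACTCA (4.20% of promoters), a CArG box (1.16%), or the TCF and LEF motif, searched as CTTTGAT and as the same run with AA, TA or TT at its end (12%), which says only that these letters are not in this window. All matches are descriptions of sequence and not measured binding sites.

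Reads assigned to genes came to between 17181204 and 26153506 per library. Levels are given as CPM, counts scaled for library size together over all 16 libraries, and tests are edgeR quasi-likelihood tests called at a Benjamini-Hochberg adjusted p below 0.05. LEF1, which the construct is made from, ran from 173 to 273 CPM in SW480 dnLEF1 and from 48.8 to 52.9 CPM in SW480 GFP. It ran from 20.1 to 25.6 CPM in SW620 dnLEF1 and from 2.82 to 3.92 CPM in SW620 GFP. Within each line every dnLEF1 library thus lay above every GFP library. The line of each library was taken from its label. All 8 Wnt feedback targets examined fell in SW480, whereas in SW620 1 was higher, 1 was lower and 6 did not pass the test. Over all genes tested, 24.4% were called lower in SW480, and 6.03% higher and 2.43% lower in SW620. Without the libraries numbered 1, whose levels are given further on, RNF43 lost its call in SW480 (edgeR adjusted p = 0.0524), which left 7 lower, and ZNRF3 lost its call in SW620 (0.0539). SW620 GFP replicate 3 stood apart in alignment: 39.4% of its reads had aligned to more than 1 place, against 7.61% to 9.46% in the other 15 libraries.

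Markers of cell types moved with dnLEF1 as well. Of 8 colon epithelial markers tested, 7 were lower and 1 higher in SW480 (median log2 change -0.68). In SW620 3 were lower and 0 higher (median -0.16). Those counts stand beside 24.4% of all genes called lower and 24.2% higher in SW480, and 2.43% and 6.03% in SW620. The 12 markers of that list together ran from 7088 to 8509 CPM in SW480 dnLEF1 and from 10723 to 12488 CPM in SW480 GFP, and from 8531 to 10832 CPM in SW620 dnLEF1 and from 9932 to 12244 CPM in SW620 GFP. KRT8, a keratin of simple epithelia, averaged 3713 ± 313 CPM in SW480 dnLEF1 and 5469 ± 373 CPM in SW480 GFP (SD, n = 4 each). CDX2, an intestinal transcription factor, averaged 0.131 ± 0.0612 CPM in SW480 dnLEF1 and 12.2 ± 0.611 CPM in SW480 GFP, and VIL1, a protein of the brush border, was 14.3-fold lower with dnLEF1. CDH1, the epithelial cadherin, was 2.95-fold higher in SW480 dnLEF1 and 2.41-fold lower in SW620 dnLEF1.

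PTPRC, the defining leukocyte gene, had no counts in 3 groups and 0.0785 CPM in SW480 GFP. The 10 leukocyte markers together ran from 9.35 to 11.9 CPM in SW480 dnLEF1 and from 5.01 to 6.29 CPM in SW480 GFP, with 4 of them at 0 in SW480 dnLEF1 and 2 in SW480 GFP, and in SW620 they stayed between 4.84 and 7.12 CPM. CD68 and LYZ were called higher in SW480, LYZ losing the call without the libraries numbered 1 (edgeR adjusted p = 0.0541), and LYZ was called higher in SW620. The 10 fibroblast markers together ran from 14.9 to 38 CPM in SW480 dnLEF1 and from 8.88 to 17.7 CPM in SW480 GFP, and the 3 that could be tested moved in both directions. COL1A1, a collagen chain, averaged 28.1 ± 9.87 CPM in SW480 dnLEF1 and 4.84 ± 0.765 CPM in SW480 GFP. LUM, a matrix proteoglycan, had no counts in SW480 dnLEF1 and 7.2 ± 2.69 CPM in SW480 GFP, and PDGFRB, a growth factor receptor, averaged 0.348 ± 0.123 CPM in SW480 dnLEF1 and 1.31 ± 0.545 CPM in SW480 GFP. DCN was at 0 in both. In SW620 the fibroblast markers ran from 29.2 to 32.6 CPM with dnLEF1 and from 22.3 to 34.3 CPM with GFP. COL3A1 was at 0 there, and COL1A1 was called lower, at 2.02 ± 0.506 CPM with dnLEF1 and 4.35 ± 0.572 CPM with GFP. LUM was called higher in SW620 GFP than in SW480 GFP. Of the 10 fibroblast markers, 2 averaged 1 CPM or more in SW620 dnLEF1 and 3 in SW620 GFP. The 8 endothelial markers together ran from 2.36 to 3.94 CPM in SW480 dnLEF1 and from 0.553 to 1.37 CPM in SW480 GFP, so that the groups did not overlap. VWF, the 1 of them that could be tested, averaged 2.98 ± 0.78 CPM in SW480 dnLEF1 and 0.869 ± 0.382 CPM in SW480 GFP (edgeR adjusted p = 0.000218). In SW620 the endothelial sum was 2.01 CPM at most. The part of other cell types in the results below was not tested.

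The libraries numbered 1 stood apart from the rest of their groups for the immediate early members, in both lines and with both constructs. FOS had 66.4 CPM in SW620 dnLEF1 replicate 1 and between 263 and 344 CPM in the other 3 libraries of that group. In SW620 GFP it had 54.9 CPM in replicate 1 and 311, 314 and 324 CPM in the others. FOSB, a close relative of FOS, had 5.39 CPM in SW620 GFP replicate 1 and 93.4, 101 and 79.3 CPM in replicates 2, 3 and 4. JUN, the main partner of FOS, had 197 CPM in SW620 GFP replicate 1 and 369, 380 and 387 CPM in the others. In SW480 the same library number was low by less: FOS had 103 CPM in dnLEF1 replicate 1 and 134 CPM in GFP replicate 1, against at least 153 and at least 231 CPM in the other libraries of those groups. Replicate 1 was the lowest of 4 in all 4 groups for FOS, FOSB, JUN, JUNB, JUND and ATF3. For FOSL1 it was the lowest in 3 groups and for FOSL2 in 1. Of 10885 genes with a mean log2 CPM above 2, 418 or 3.84% were lowest in replicate 1 in all 4 groups.

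**Figure D1:**
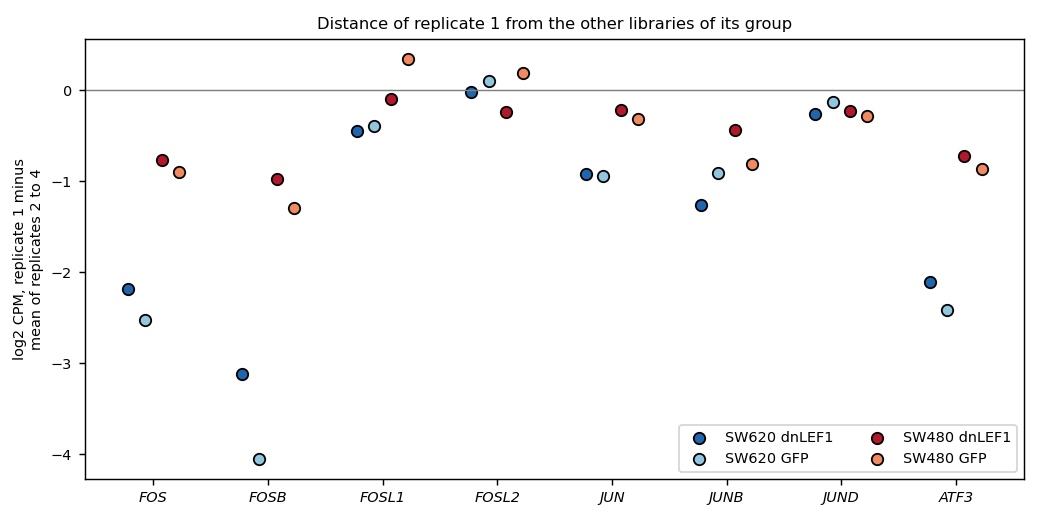
Log2 CPM of replicate 1 minus the mean log2 CPM of replicates 2 to 4 (vertical axis) for each of the 8 AP-1 genes in each of 4 groups, 1 point per group. FOS, FOSB and ATF3 lie furthest below the line at 0, down to -4.05 for FOSB in SW620 GFP, whereas FOSL2 stays between -0.24 and 0.19.

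Of 25 other immediate early genes, 15 were lowest of 4 in replicate 1 in all 4 groups. By group, replicate 1 was the lowest for 22 of them in SW480 dnLEF1, 17 in SW480 GFP, 23 in SW620 dnLEF1 and 21 in SW620 GFP. Among all genes with a mean log2 CPM above 2, it was the lowest for 29.3%, 30.4%, 21.8% and 31.3% in the same order. The list summed to 1063 CPM in SW620 dnLEF1 replicate 1 and at least 1893 CPM in the other libraries of that group. In SW620 GFP it summed to 999.8 CPM in replicate 1 and at least 1981 CPM in the others. In SW480 the sum was 1698 CPM in dnLEF1 replicate 1, against 2249 CPM or more, and 1785 CPM in GFP replicate 1, against 2062 CPM or more. EGR1, a zinc finger gene induced together with FOS, had 136 CPM in SW620 dnLEF1 replicate 1 and 517 CPM or more in the others. The summed level of 11 heat shock genes went the other way, with replicate 1 the highest of 4 in all 4 groups. It reached 11694 CPM in SW620 dnLEF1 replicate 1 and 12721 CPM in SW620 GFP replicate 1, for example. Of the 11 genes, 6 were highest in replicate 1 in all 4 groups, and the share of all genes that were so was not worked out. The labels give no date, batch or culture for the libraries, and the part of these differences in the results below was not tested. Each comparison is therefore also given without the 4 libraries numbered 1, a choice made after the levels had been seen.

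**Figure D2:**
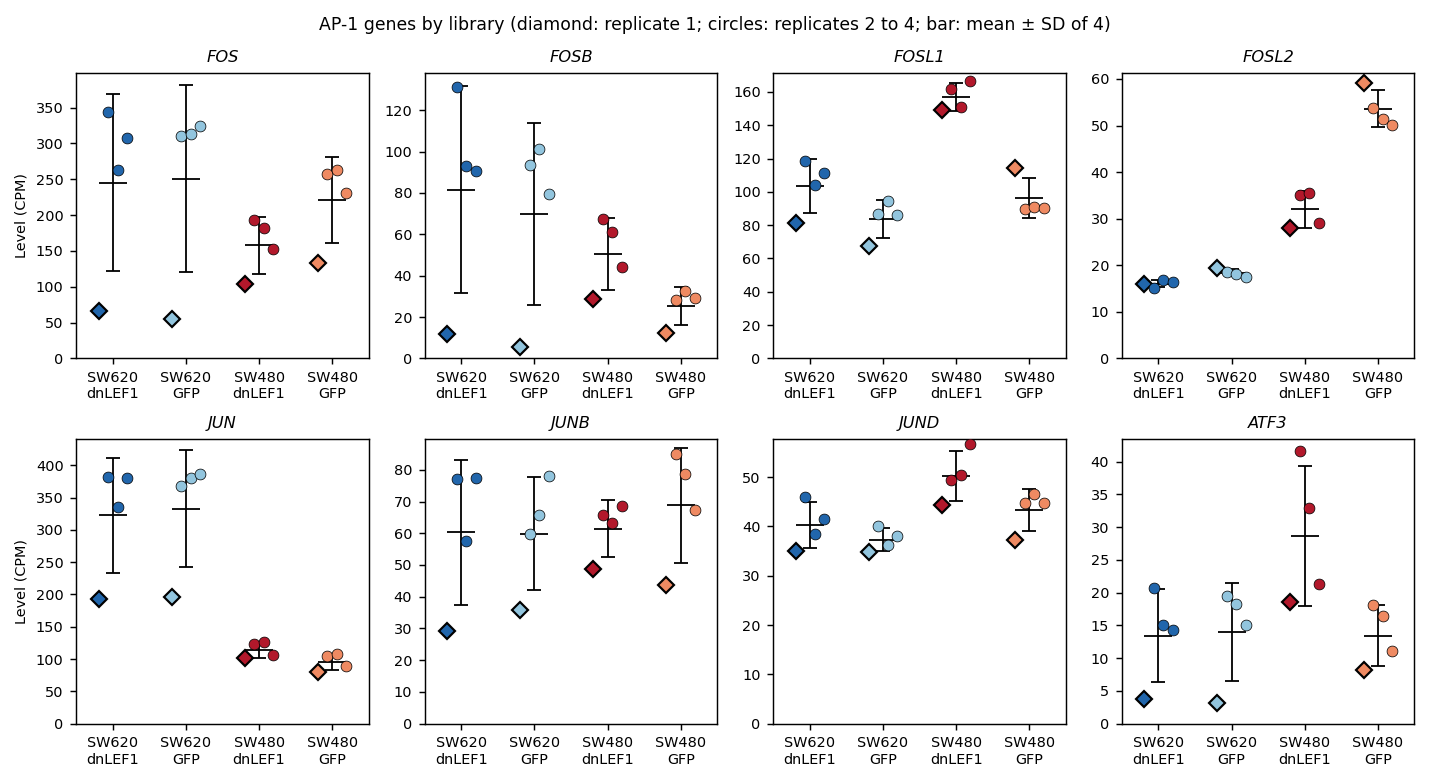
CPM (linear vertical axis from 0) of each AP-1 gene in each of 16 libraries, by group, with a bar for the mean ± SD of 4 libraries, and diamonds for replicate 1. In SW620 the diamonds of FOS, FOSB, JUN, JUNB and ATF3 lie below the 3 circles of their group, and FOSL1 and FOSL2 show the separation of SW480 dnLEF1 from SW480 GFP.

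The SW480 comparison asks what follows when Wnt output is blocked in the line grown from the primary tumour, and there the AP-1 genes moved in both directions. FOSL1, FOSB, ATF3 and JUN were higher with dnLEF1 and FOSL2 was lower, while FOS, JUNB and JUND did not pass the test. The largest changes were about 2-fold, in ATF3 and FOSB. In bulk RNA, fewer cells expressing a gene and less RNA per cell cannot be told apart. Of all 14426 genes tested, 24.2% were called higher and 24.4% lower, so 5 of 8 members called stand beside 48.5% of genes. The median log2 change was 0.24 over the 8 members and 0.00 over all genes (-0.0013). Without the libraries numbered 1, FOS was also called lower and JUND higher, which made 5 higher and 2 lower of 8, beside 23.2% and 22.5% of all genes, or 45.7% together.

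FOSL1 encodes FRA-1, a FOS family protein without the strong activation domain of FOS. It lies at chr11:65892049-65900573 on the minus strand (hg38, GENCODE 44). It had 149, 161, 151 and 166 CPM in SW480 dnLEF1 libraries, against 114, 90.0, 90.8 and 90.2 CPM in SW480 GFP libraries. The groups did not overlap, and GFP replicate 1 was the highest of its group. The change was 1.63-fold, a log2 change of 0.71 ± 0.08 (SE, edgeR adjusted p = 7.56e-06), and 0.83 ± 0.06 without the libraries numbered 1. It was called in all 16 alternatives.

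FOSB, at chr19:45467995-45475179 on the plus strand, had 28.8, 67.2, 61.3 and 44.2 CPM in SW480 dnLEF1 libraries and 12.04, 28.0, 32.5 and 29.1 CPM in SW480 GFP libraries. The dnLEF1 library with the lowest level lay among the GFP libraries and the other 3 above all of them. The log2 change was 1.00 ± 0.27 (edgeR adjusted p = 0.00711), and it was 0.96 ± 0.13 without the libraries numbered 1, when the groups no longer overlapped. The call was lost when all 16 libraries shared 1 estimate of the spread (edgeR adjusted p = 0.171). FOSB overlaps ERCC1 on the other strand, and with no strand setting given, reads of the overlap cannot be told apart.

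FOS, at chr14:75278826-75282230 on the plus strand, had 103, 193, 182 and 153 CPM in SW480 dnLEF1 libraries, against 134, 257, 263 and 231 CPM in SW480 GFP libraries. Replicate 1 was far below the rest in both groups, and the groups overlapped only through GFP replicate 1. The log2 change of -0.49 ± 0.20 did not pass the test (edgeR adjusted p = 0.056). It was -0.50 ± 0.08 without the libraries numbered 1 (edgeR adjusted p = 0.000387). Leaving out a single library also brought FOS past the threshold for GFP replicate 1 (log2 -0.67, edgeR adjusted p = 0.00383), dnLEF1 replicate 2 (0.0358) and dnLEF1 replicate 3 (0.0463). Testing with no filter on low counts did so too (0.0182). With a term for the replicate number in the fit, the log2 change was -0.48 ± 0.06 and was called (edgeR adjusted p = 0.000173). In all, FOS was called in 6 of 16 alternatives.

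FOSL2, which encodes FRA-2, went down. It lies at chr2:28392448-28417317 on the plus strand, where the antisense gene FOSL2-AS1 overlaps it. It had 28.1, 35.1, 35.6 and 29.2 CPM in SW480 dnLEF1 libraries and 59.03, 53.9, 51.5 and 50.1 CPM in SW480 GFP libraries. The groups were well apart, with the highest dnLEF1 library at 35.6 and the lowest GFP library at 50.1 CPM. The fall was 1.67-fold (log2 -0.74 ± 0.09, edgeR adjusted p = 8.88e-06). It was called in all 16 alternatives, with log2 changes from -0.79 to -0.63.

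Within the JUN family the changes in SW480 were small. JUN, at chr1:58776845-58784048 on the minus strand, had 102, 123, 126 and 106 CPM in SW480 dnLEF1 libraries and 80.4, 105, 107 and 89.1 CPM in SW480 GFP libraries. The groups overlapped, and the log2 change of 0.26 ± 0.10 passed the test narrowly (edgeR adjusted p = 0.0386). The call was lost without GFP replicate 1 (log2 0.19, edgeR adjusted p = 0.112) or GFP replicate 4 (0.23, 0.104). It was also lost without dnLEF1 replicate 2 (0.23, 0.0949) or dnLEF1 replicate 3 (0.22, 0.0973), and in the fit of all 16 libraries (0.273). JUN was called in 11 of 16 alternatives. Among them were the fit without the libraries numbered 1 (edgeR adjusted p = 0.0325) and that with a term for the replicate number (0.00534).

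JUNB, often a brake on JUN activity, had 48.6, 65.6, 63.1 and 68.6 CPM in SW480 dnLEF1 libraries and 43.8, 85.1, 78.8 and 67.4 CPM in SW480 GFP libraries (log2 -0.16 ± 0.16, edgeR adjusted p = 0.445). Without GFP replicate 1 it was called lower (log2 -0.32, edgeR adjusted p = 0.0311), which was the only alternative of 16 to do so. JUND, the steadily expressed member, had 44.4, 49.5, 50.4 and 56.8 CPM in SW480 dnLEF1 libraries and 37.2, 44.8, 46.7 and 44.8 CPM in SW480 GFP libraries. Its log2 change was 0.22 ± 0.09 (edgeR adjusted p = 0.0575), and it was called without GFP replicate 3 (0.0487) or dnLEF1 replicate 1 (0.0213). JUND was also called with upper-quartile scaling (0.0495), with no filter (0.0495) and with a term for the replicate number (0.0316). JUNB lies at chr19:12791486-12793315 on the plus strand, where HOOK2 overlaps it on the other strand, and JUND at chr19:18279694-18281622 on the minus strand.

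ATF3, at chr1:212565334-212620777 on the plus strand, showed the largest change of the 8. It had 18.6, 41.6, 32.9 and 21.3 CPM in SW480 dnLEF1 libraries, against 8.13, 18.1, 16.5 and 11.2 CPM in SW480 GFP libraries. Both groups spread about as widely relative to their level, and the lowest dnLEF1 library was just above the highest GFP library. The change was 2.14-fold (log2 1.10 ± 0.25, edgeR adjusted p = 0.00268). It was called in all 16 alternatives with adjusted p up to 0.0319.

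**Figure D3:**
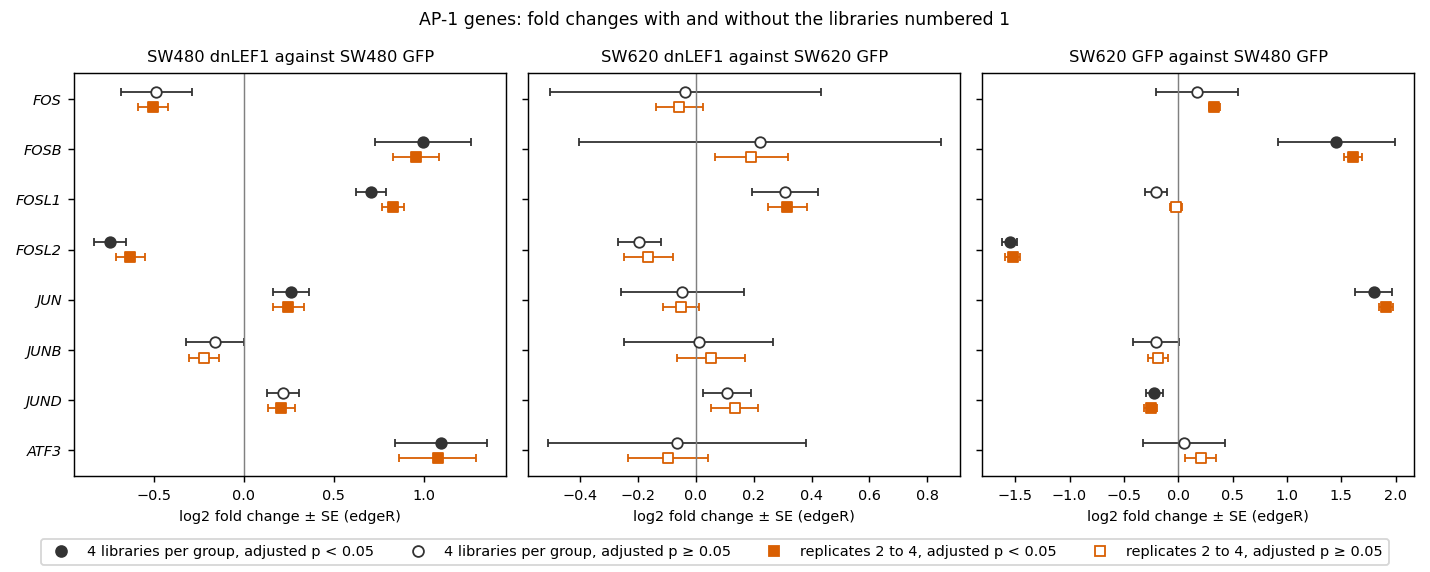
Log2 fold change ± SE (horizontal axis, edgeR) of each AP-1 gene in 3 comparisons, with 4 libraries per group (circles) and with replicates 2 to 4 only (squares), filled where the adjusted p is below 0.05. In SW480 FOSL1, FOSB and ATF3 lie to the right and FOSL2 to the left of 0 in both, and the SE of FOS is 0.20 with all libraries and 0.08 without those numbered 1.

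In SW620, the line grown from the metastasis, no AP-1 gene passed the test with dnLEF1, where 8.46% of 13336 genes did, 6.03% higher and 2.43% lower. FOSL1 and FOSL2 had an unadjusted p below 0.05, and DESeq2 and limma voom also called 0 of 8. FOSL1 had 81.2, 119, 104 and 112 CPM in SW620 dnLEF1 libraries and 67.7, 86.6, 94.8 and 86.2 CPM in SW620 GFP libraries. Replicate 1 was the lowest in both groups, and the other 3 dnLEF1 libraries lay above all GFP libraries. The log2 change was 0.31 ± 0.11 (edgeR adjusted p = 0.131). Without the libraries numbered 1 it was 0.32 ± 0.07 and was called (edgeR adjusted p = 0.0115). That stands beside 5.29% of genes called higher, 1.97% lower and 7.26% in all. FOSL1 was also called without dnLEF1 replicate 1 alone (log2 0.41, edgeR adjusted p = 0.0243). With a term for the replicate number it was called too (edgeR adjusted p = 0.000764), in a fit that called 1825 genes, against 1128 without that term. FOSL2 had 15.9, 15.03, 16.8 and 16.4 CPM in SW620 dnLEF1 libraries and 19.4, 18.5, 18.2 and 17.5 CPM in SW620 GFP libraries. The groups did not overlap, but the log2 difference of -0.20 ± 0.07 did not pass (edgeR adjusted p = 0.144).

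For the immediate early members in SW620 the spread within groups was wider than any difference between them. FOS had 66.4, 344, 263 and 307 CPM in SW620 dnLEF1 libraries and 54.9, 311, 314 and 324 CPM in SW620 GFP libraries (log2 -0.04 ± 0.47, edgeR adjusted p = 0.978). FOSB had 11.8, 131, 92.8 and 90.4 CPM in SW620 dnLEF1 libraries and 5.39, 93.4, 101 and 79.3 CPM in SW620 GFP libraries (log2 0.22 ± 0.63, edgeR adjusted p = 0.901). The change of FOS in SW480 lies within 1 SE of its value in SW620, and that of FOSB within 2 SE. The SE narrowed to 0.08 for FOS and 0.13 for FOSB without the libraries numbered 1, with log2 changes of -0.06 and 0.19, and neither was called.

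ATF3 had 3.76, 20.7, 15.1 and 14.2 CPM in SW620 dnLEF1 libraries and 3.22, 19.6, 18.3 and 15.1 CPM in SW620 GFP libraries (log2 -0.07 ± 0.45, edgeR adjusted p = 0.959). JUN averaged 322 ± 89.3 CPM in SW620 dnLEF1 and 333 ± 91.1 CPM in SW620 GFP (SD, n = 4 each), a log2 change of -0.05 ± 0.21. JUNB averaged 60.3 ± 22.8 CPM in SW620 dnLEF1 and 59.8 ± 17.8 CPM in SW620 GFP (log2 0.01 ± 0.26). JUND, with a narrower spread, averaged 40.3 ± 4.69 CPM in SW620 dnLEF1 and 37.3 ± 2.26 CPM in SW620 GFP (log2 0.11 ± 0.08). None of the 16 alternatives called ATF3, JUN, JUNB or JUND.

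Whether the change with dnLEF1 differed between the lines was tested directly, as SW620 minus SW480. LEF1 did not reach the same level in both, averaging 246 CPM in SW480 dnLEF1 and 23.3 CPM in SW620 dnLEF1. The 8 Wnt feedback targets had a median log2 change of -2.82 in SW480 and -0.06 in SW620. The part of these differences in the results below was not tested. FOSL2 was the 1 member of 8 called, where 28.5% of 14926 genes were. Its log2 change was -0.20 in SW620 and -0.74 in SW480, a difference of 0.55 ± 0.12 (edgeR adjusted p = 0.00127), and it was called in all 24 alternatives. The difference for FOSL1 was -0.40 ± 0.15 and did not pass (edgeR adjusted p = 0.0571). It passed in 9 of 24 alternatives, among them RLE scaling (edgeR adjusted p = 0.0493), upper-quartile scaling (0.0469), no filter on low counts (0.0379) and DESeq2 (adjusted p = 0.0396). It also passed without SW480 GFP replicate 1 (edgeR adjusted p = 0.017), SW620 GFP replicate 1 (0.0145) or SW620 dnLEF1 replicate 2 (0.0277). The difference for ATF3 was -1.16 ± 0.59 (edgeR adjusted p = 0.153), and it passed without SW620 GFP replicate 1 (-1.49, edgeR adjusted p = 0.0271). Without the libraries numbered 1, 5 members were called: FOS and FOSL2 higher, at 0.46 ± 0.13 and 0.48 ± 0.12, and FOSB, FOSL1 and ATF3 lower, at -0.75 ± 0.21, -0.50 ± 0.09 and -1.16 ± 0.30. Their edgeR adjusted p ran from 0.000419 to 0.016, beside 14.2% of all genes called higher, 9.68% lower and 23.9% together.

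Between the mock lines, SW620 GFP against SW480 GFP, JUN and FOSL2 were furthest apart. These GFP libraries are also the controls of the comparisons above. JUN had 197, 369, 380 and 387 CPM in SW620 GFP libraries and 80.4, 105, 107 and 89.1 CPM in SW480 GFP libraries. Every SW620 library was above every SW480 library, and the difference was 3.48-fold (log2 1.80 ± 0.17, edgeR adjusted p = 2.4e-07). FOSL2 had 17.5 to 19.4 CPM in SW620 GFP and 50.1 to 59.03 CPM in SW480 GFP, a 2.93-fold lower level (log2 -1.55 ± 0.07, edgeR adjusted p = 6.63e-11). Both were called in all 16 alternatives. In all, 2 of 8 members were higher and 2 lower, beside 37.7% and 40.3% of 14350 genes, 78.0% together.

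FOSB was the other member called higher, at 5.39, 93.4, 101 and 79.3 CPM in SW620 GFP libraries and 12.04, 28.0, 32.5 and 29.1 CPM in SW480 GFP libraries. SW620 replicate 1 was below every SW480 library and the other 3 were above all of them. The log2 difference was 1.46 ± 0.54 (edgeR adjusted p = 0.0227), and 1.61 ± 0.08 without the libraries numbered 1. The call was lost in DESeq2 (adjusted p = 0.0856), in limma voom (adjusted p = 0.293) and, in edgeR, without SW480 GFP replicate 1 (adjusted p = 0.0559), SW620 GFP replicate 2 (0.0614) or SW620 GFP replicate 3 (0.0655).

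JUND was lower, at 37.3 ± 2.26 CPM in SW620 GFP and 43.4 ± 4.22 CPM in SW480 GFP (SD, n = 4 each; log2 -0.22 ± 0.08, edgeR adjusted p = 0.0178). That call was lost without SW480 GFP replicate 3 (0.0598), SW620 GFP replicate 1 (0.0508) or SW620 GFP replicate 3 (0.0515). FOS did not pass with all libraries (log2 0.18 ± 0.38, edgeR adjusted p = 0.678). It was higher in SW620 GFP without the libraries numbered 1 (log2 0.33 ± 0.05, edgeR adjusted p = 2.44e-05) or without SW620 GFP replicate 1 alone (0.52, edgeR adjusted p = 0.00903). FOSL1 was called lower in SW620 GFP only without SW620 GFP replicate 3 (log2 -0.26, edgeR adjusted p = 0.0363) or with upper-quartile scaling (0.0268). ATF3 and JUNB were called in none of the 16 alternatives. Without the libraries numbered 1, 3 of 8 members were higher and 2 lower, beside 38.6% and 41.1% of genes, 79.7% together.

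To compare the genes with each other, CPM were divided by the length of the exons of each gene in kilobases, which gives a level per length. In SW480 dnLEF1 FOSL1 led at 83.2 ± 4.39 CPM per kb, ahead of FOS at 49.5 ± 12.6, JUNB at 33.6 ± 4.85, JUN at 31.6 ± 3.34, JUND at 26.1 ± 2.62, FOSB at 9.07 ± 3.13, ATF3 at 7.15 ± 2.67 and FOSL2 at 4.47 ± 0.546 CPM per kb (SD, n = 4). In SW480 GFP FOS led at 69.4 ± 18.8 CPM per kb, ahead of FOSL1 at 51.0 ± 6.30, JUNB at 37.6 ± 9.94, JUN at 26.3 ± 3.56, JUND at 22.5 ± 2.19, FOSL2 at 7.48 ± 0.55, FOSB at 4.57 ± 1.64 and ATF3 at 3.37 ± 1.153 CPM per kb. Between neighbours in these orders the ranges of mean ± SD were apart only for FOSL1 and FOS and for JUND and FOSB with dnLEF1, and for JUND and FOSL2 and for FOSL2 and FOSB with GFP. FOSL2 was the last of 8 with dnLEF1 and the sixth with GFP.

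In SW620 dnLEF1 JUN led at 89.0 ± 24.6 CPM per kb, ahead of FOS at 76.9 ± 38.8, FOSL1 at 55.0 ± 8.58, JUNB at 32.9 ± 12.5, JUND at 20.9 ± 2.43, FOSB at 14.7 ± 9.02, ATF3 at 3.37 ± 1.77 and FOSL2 at 2.24 ± 0.108 CPM per kb. In SW620 GFP JUN again led at 91.9 ± 25.1 CPM per kb, ahead of FOS at 78.7 ± 41.0, FOSL1 at 44.4 ± 6.08, JUNB at 32.7 ± 9.72, JUND at 19.4 ± 1.17, FOSB at 12.6 ± 7.90, ATF3 at 3.51 ± 1.86 and FOSL2 at 2.57 ± 0.11 CPM per kb. The ranges of neighbours were apart only for FOSL1 and JUNB and for FOSB and ATF3 with dnLEF1, and for JUNB and JUND with GFP. The order of the 8 was the same with dnLEF1 and with GFP in SW620. All these orders rest on the exon lengths, and places within them depend on that choice. Exons come to 3186 bases in FOS and 3624 in JUN, against 2104 and 3257 bases in the longest transcript. The lead of JUN over FOS in SW620 therefore depends on the length used.

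These levels give each member's share of its family. FOSL1 made up 57.5% ± 6.34 of the FOS family per length in SW480 dnLEF1 and 39.2% ± 9.64 in SW480 GFP (SD, n = 4 each). Replicate 1 had the highest FOSL1 share in both, 65.6% with dnLEF1 and 53.6% with GFP. The 2 groups overlapped, since the lowest dnLEF1 share was 52.3%. FOS made up 33.4% ± 4.89 in SW480 dnLEF1 and 51.6% ± 9.73 in SW480 GFP. The FOS family as a whole summed to 146 ± 18.3 CPM per kb in SW480 dnLEF1 and 133 ± 14.0 in SW480 GFP, a difference within the SD. In SW620 the FOSL1 share was 41.1% ± 14.8 with dnLEF1 and 37.2% ± 17.3 with GFP, and replicate 1 had the highest share in both groups, 63.1% with dnLEF1 and 63.2% with GFP. JUN made up 62.2% ± 1.5 of the JUN family in SW620 dnLEF1 and 63.4% ± 3.09 in SW620 GFP, against 34.7% ± 2.81 in SW480 dnLEF1 and 30.7% ± 2.22 in SW480 GFP. No test was made of the shares. They shift with the gene model: with the longest transcript in place of all exons, the FOSL1 share in SW480 dnLEF1 was 50.5%.

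**Figure D4:**
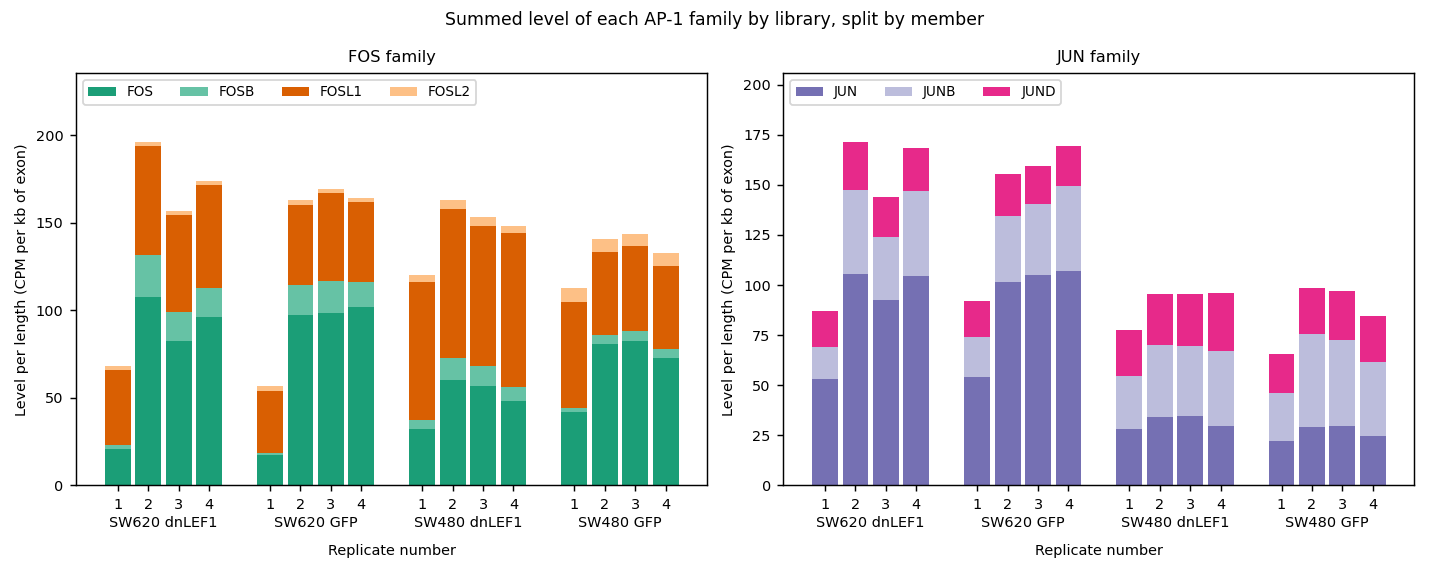
Level per length (CPM per kb of exon, linear axis from 0) of the FOS family and of the JUN family in each of 16 libraries, stacked by member. FOSL1 is the largest part of the FOS family in SW480 dnLEF1, JUN is the largest part of the JUN family in SW620, and replicate 1 of either SW620 group has the lowest FOS family sum of its group, for example 56.8 CPM per kb in SW620 GFP.

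Each member was also set beside the 12 genes on either side that had a mean log2 CPM above 2. Stretches of the genome away from the members were not examined. Over all genes tested in SW480, 24.2% were called higher and 24.4% lower, and the median log2 change was -0.0013. That set also holds genes below the level asked of the neighbours, so it is not a like background for their counts. The shares among genes above that level were not worked out. Around FOSL1 the 24 neighbours had a median log2 change of 0.23 in SW480 dnLEF1 against GFP, 22 of them above 0 and 14 called higher, against 0.71 for FOSL1 itself. Around FOSB the median was 0.27, with 21 above 0 and 14 called higher, against 1.00 for FOSB. ATF3 and JUN stood in surroundings that went the other way, with neighbour medians of -0.25 and -0.25 and 12 of 24 called lower at each. The other medians were -0.07 around FOS, 0.10 around FOSL2, 0.11 around JUNB and 0.12 around JUND. In SW620 all 8 medians lay between -0.04 and 0.02. The part of the neighbourhood in the members' changes was not tested.

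The wider AP-1 pathway was examined through lists of genes, by counts of calls and medians, beside 24.2% of genes called higher and 24.4% lower in SW480 and 6.03% and 2.43% in SW620. Of 19 other bZIP relatives tested in SW480, 5 were higher and 6 lower, with a median log2 change of -0.04. BACH2, a repressor that pairs with small MAF proteins, had a log2 change of 2.29 ± 0.25, to 3.41 ± 0.703 CPM with dnLEF1 against 0.689 ± 0.243 CPM with GFP (edgeR adjusted p = 4.35e-06). MAFK, one of those small MAF proteins, rose by 0.53 ± 0.07 on the log2 scale. NFE2 fell by 1.31 ± 0.12 on the log2 scale. BATF3 and MAFF were also higher, and so was BATF, which lost the call without the libraries numbered 1. JDP2, a repressor of AP-1, was among the 6 lower, at 15.3 ± 0.788 CPM in SW480 dnLEF1 and 20.7 ± 2.35 CPM in SW480 GFP. In SW620 edgeR called 0 of 14 tested relatives with all libraries (4 had an unadjusted p below 0.05), and limma voom called 0. BATF was called higher there by DESeq2 and without the libraries numbered 1.

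Of 26 kinases of the JNK, p38 and ERK chains that act on AP-1, 9 were higher and 9 lower in SW480 (median -0.02). MAP3K1, which acts upstream of JNK, had 39.7 ± 5.07 CPM in SW480 dnLEF1 and 87.3 ± 9.35 CPM in SW480 GFP, a log2 change of -1.13 ± 0.10. In SW620 it had 41.2 ± 4.27 CPM with dnLEF1 and 29.5 ± 2.89 CPM with GFP (log2 0.49 ± 0.09, edgeR adjusted p = 0.00331), and it also passed the test of the difference between the lines. MAP3K5, a stress kinase upstream of JNK and p38, and RPS6KA2, an ERK-activated kinase, rose 2.35-fold and 2.58-fold in SW480. MAPK13, a p38 kinase, fell in both lines, by 0.57 ± 0.07 in SW480 and 0.42 ± 0.06 in SW620 on the log2 scale. In SW620, 1 of 26 was higher and 2 were lower, the other being MAPK14, which lost the call without the libraries numbered 1 (edgeR adjusted p = 0.092) and without any 1 of the 8 libraries (0.056 to 0.136).

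The next list held serum response factor, its partners, which need not be activators, and activators of FOS and JUN. Among 11 of these tested, 2 were higher and 4 lower in SW480 (median -0.15). In SW620 0 were called by edgeR, DESeq2 or limma voom, 1 having an unadjusted p below 0.05. SRF, serum response factor, had 58.6 ± 3.79 CPM in SW480 dnLEF1 and 46.9 ± 3.56 CPM in SW480 GFP (log2 0.33 ± 0.07, edgeR adjusted p = 0.00247). Its co-activator MKL2 and the factors ELK3 and ATF1 fell by 0.54, 0.44 and 0.34 on the log2 scale. Of 16 proteins that limit AP-1, 3 were higher and 4 lower in SW480. DUSP1, an immediate early phosphatase of JNK and p38, had 33.4, 44.1, 41.4 and 37.0 CPM in SW480 dnLEF1 libraries and 13.2, 18.2, 21.7 and 21.1 CPM in SW480 GFP libraries (log2 1.08 ± 0.13, edgeR adjusted p = 1.33e-05). DUSP4, another phosphatase of these kinases, fell 2.62-fold. DUSP5, which acts on ERK, was higher in both lines, by 0.87 ± 0.12 in SW480 and 0.68 ± 0.20 in SW620 on the log2 scale. It was the only 1 of 15 such genes called in SW620 (edgeR adjusted p = 0.0442). That call was lost in limma voom (adjusted p = 0.0587), with upper-quartile scaling (0.0502), without any 1 of the SW620 GFP libraries (0.0511 to 0.0983) and without SW620 dnLEF1 replicate 2 (0.129) or 4 (0.104).

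Other immediate early genes did not share one direction in SW480: 4 of 25 were higher and 9 lower, with a median of -0.21. SGK1, a serum-induced kinase, rose 11.1-fold to 58.1 ± 9.66 CPM, and CYR61, a matrix protein gene induced by serum, rose 3.85-fold to 410 ± 85.5 CPM. ID1 and TRIB1 fell 5.62-fold and 1.78-fold. In SW620 TRIB1 was the only 1 of 24 called, at a log2 change of 0.31 ± 0.08. It lost the call without SW620 GFP replicate 4 (edgeR adjusted p = 0.0664), SW620 dnLEF1 replicate 3 (0.0571) or SW620 dnLEF1 replicate 4 (0.0769).

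Of 41 genes known as AP-1 targets, 32 could be tested in SW480, of which 16 were higher and 8 lower, with a median log2 change of 0.36. These genes have many other regulators, and the list was drawn up with results of these data known. PLAU, urokinase, had 30.4 ± 2.02 CPM in SW480 dnLEF1 and 6.10 ± 0.864 CPM in SW480 GFP (log2 2.32 ± 0.10, edgeR adjusted p = 3.65e-10). FHL2, a co-activator of AP-1 and beta-catenin, rose 3.43-fold, and VEGFA, the angiogenic growth factor, 2.69-fold. In SW620, 6 of 30 were higher and 4 lower, with a median of 0.14. EREG, an EGF receptor ligand, had 5.46 ± 1.35 CPM in SW620 dnLEF1 and 1.61 ± 0.137 CPM in SW620 GFP, and TNC, a matrix protein, rose by 0.47 ± 0.07 on the log2 scale, a call lost in the fit of all 16 libraries (edgeR adjusted p = 0.256). LAMB3, a laminin gene, fell by 0.78 ± 0.06 on the log2 scale. Of 16 genes of the ATF4 and ATF3 stress response, 1 was higher and 6 lower in SW480 (median -0.15), and 0 were higher and 2 lower in SW620, DDIT4 and PHGDH.

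The genes whose profile over the 16 libraries was most like that of each member were found by the root mean square difference of centred log2 CPM over 10987 genes. For FOS they were EGR1 (0.152), EGR3 (0.249) and IER2 (0.377), against a spread of FOS itself of 0.797. For FOSB they were EGR3 (0.659), FOS (0.719) and EGR1 (0.759), with a spread of 1.27, so that no gene followed FOSB as closely as EGR1 followed FOS. For ATF3 they were DUSP1 (0.406), ZFP36 (0.413) and LOC284454 (0.448), with a spread of 0.932. The other members had no gene of the immediate early list among their nearest 3 except JUNB, with IER3 at 0.276 after DYRK1B at 0.263. For FOSL1 the nearest was CLDN4 at 0.161, for FOSL2 FOXJ2 at 0.104, for JUN FOXO1 at 0.248 and for JUND PNPLA6 at 0.0825. The libraries share line, construct and replicate 1, so a likeness may rest on any of these.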

How the data were processed

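Polyadenylated RNA of 16 libraries was analysed as raw counts of reads per gene, which the authors deposited. Trimmomatic, TopHat2, HTSeq and DESeq2 were used with hg38, per the submitters' processing notes. No source used here gives versions, the annotation or the strand setting. Each file has 26485 gene symbols and 5 summary lines that name no gene. Those lines were left out. Their share was 50.5% in SW620 GFP replicate 3 and 20.0% to 24.3% elsewhere. Reads aligned to more than 1 place are not in the gene counts.

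Groups came from the labels. No pair of replicates agreed within counting noise (chi-square per degree of freedom 1.96 to 21.0). The test was the quasi-likelihood test of edgeR 4.0.16, run in R 4.3.3 (TMM, filterByExpr, Benjamini-Hochberg over all genes tested). Each of the 3 comparisons of 2 groups was fitted on its own 8 libraries, and the difference between lines on all 16. The SE, an approximation, is the size of the log2 fold change divided by the root of F. The fits were also run on simulated counts with the same spread for every gene and no shared difference between replicates. Those runs do not show how the fits behave with the spread seen in these libraries. Alternatives were RLE and upper-quartile scaling, no filter, DESeq2 1.42.0, limma voom 3.58.1, 1 fit of all libraries, the replicate number as a block, and each library left out. CPM are on a common TMM scale. Gene models are GENCODE 44.

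The members and lists were chosen with earlier results of these data known. Besides the members, LEF1 and the Wnt feedback targets, the named genes are up to 4 called members of each list with the smallest adjusted p and the 3 genes most like each member. Some genes that this rule names are not reported here. BATF, BATF3, MAFF, JDP2, PTPRC, DCN, KRT8, COL3A1 and genes of the library check were named after their values were seen.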

Additional observations from a re-analysis of the deposited data

Results flagged for a closer look

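Of 32 pairs of a member and a group, 3 held a library far from the other 3 of its group, and all 3 were replicate 1. For independent groups, chance alone gives such a library in about 1 of 20. These pairs are not independent: they share libraries, and FOS and JUN were flagged in the same one. The count of 3 therefore cannot be set against that rate. FOS had 54.9 CPM in SW620 GFP replicate 1, low against 311 CPM or more in the others. JUN had 197 CPM in SW620 GFP replicate 1, low against 369 CPM or more. FOSL1 had 114 CPM in SW480 GFP replicate 1, high against 90.8 CPM or less.

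In SW620 GFP replicate 3, the share of multiply aligned reads was 39.4%, far from the other 3 libraries of the group. The FOSL2 change with dnLEF1 differed between the 2 lines, with a log2 change in SW620 minus that in SW480 of 0.55 ± 0.12. The LEF1 level with dnLEF1 also differed between them, at 23.3 CPM in SW620 and 246 CPM in SW480.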

How the results depend on the processing

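No direction of a called value turned round in any alternative, and FOSL1, FOSL2 and ATF3 in SW480 and JUN and FOSL2 between the GFP lines were called in all 16. Leaving out 1 library at a time gave 3 to 5 members higher and 1 to 3 lower in SW480, 0 to 1 higher and 0 lower in SW620, 1 to 3 higher and 1 to 2 lower between the GFP lines, and 1 higher and 0 to 2 lower for the difference between lines. Over all genes it gave 5989 to 7007, 810 to 1202, 10868 to 11381 and 3614 to 4545 called in the same order. With all 16 libraries in 1 fit, 2 members were higher in SW480. With no filter on low counts, 2 were lower there. With DESeq2 or limma voom, 1 was higher between the GFP lines. For the difference between lines, 1 was lower with RLE scaling, upper-quartile scaling, no filter or DESeq2. Without the libraries numbered 1, 2 were lower in SW480, 1 was higher in SW620, and the difference between lines had 2 higher and 3 lower. The cause was not tested.

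The replicate numbers were not taken to pair samples in the main fits, since not every library correlated best with its own number. Deviations of same-numbered libraries correlated at -0.0748 to 0.221 in SW480 and -0.00455 to 0.252 in SW620. The dnLEF1 library numbered 1 did correlate best with GFP replicate 1 in both lines (0.221 and 0.252). In SW620 those numbered 3 and 4 also correlated best with their own number (0.123 and 0.148). The main fits count this shared part as spread within groups. With the number as a block, FOS (log2 -0.48 ± 0.06, edgeR adjusted p = 0.000173) and FOSL2 were lower in SW480, 2 in all, and JUND was called higher there (0.0316). In SW620 1 was higher, FOSL1 (log2 0.30 ± 0.06, edgeR adjusted p = 0.000764), where 1825 genes were called against 1128, and 1 was lower for the difference between lines. With a block within each line, added after the data were seen, that difference had 2 higher and 4 lower.

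With the longest transcript as length, FOSL1 held 50.5% of the FOS family in SW480 dnLEF1, and JUN 33.0% of the JUN family in SW480 GFP and 64.7% in SW620 dnLEF1. With 6 or 25 neighbours on either side, the SW480 medians were 0.041 and 0.0088 around FOSL2 and -0.48 and -0.18 around JUN. The fewest reads of a member in a library were 71, for ATF3 in SW620 GFP replicate 1, and depth was not varied.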

Other observations

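Few of the heat shock genes, the list that was highest in the libraries numbered 1, were called with dnLEF1. HSPB1, a small heat shock protein, had 386 ± 36.4 CPM in SW480 dnLEF1 and 236 ± 17.2 CPM in SW480 GFP (SD, n = 4 each; log2 0.71 ± 0.08, edgeR adjusted p = 5.19e-06). It had 239 ± 35.2 CPM in SW620 dnLEF1 and 150.1 ± 8.97 CPM in SW620 GFP (log2 0.67 ± 0.09, edgeR adjusted p = 0.000168). BAG3, a co-chaperone, rose 1.52-fold in SW480. Of 11 genes tested, 2 were higher and 0 lower in SW480, beside 24.2% and 24.4% of all genes. In SW620 1 was higher and 0 lower, beside 6.03% and 2.43% of all genes. The median log2 changes of the list were 0.10 in SW480 and -0.01 in SW620. HSPB1 was also called in both lines without the libraries numbered 1, at log2 changes of 0.72 in SW480 and 0.76 in SW620.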
